A study of Mus musculus with 48 samples.

Results

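Cells dispose of peroxides and reactive electrophiles with a set of enzymes that share glutathione, thioredoxin and NADPH as their sources of reducing power, and the levels of 40 genes of this system were followed here in mouse brain. The 40 were taken by symbol from a list of glutathione S-transferases, glutathione peroxidases, peroxiredoxins, superoxide dismutases, thioredoxins, glutathione-making enzymes, ferritins and the NRF2 and KEAP1 regulators, out of 56748 genes in the count table. Each symbol was found once, and all 40 passed the filter on low counts in each of the 4 regions. The study compared bulk polyadenylated RNA from cerebellum, dorsal hippocampus, ventral hippocampus and medial prefrontal cortex of mice aged 16 weeks, females and males, under the genotype labels 129/Sv-Cyp2e1tm1Gonz/J (KO, a targeted mutation of Cyp2e1) and 129S1/SvImJ (WT). The labels differ in strain name as well as in the mutation, and the parts of these in any KO to WT difference cannot be told apart. Cyp2e1 encodes a cytochrome P450 that is known as a source of reactive oxygen species. Each of the 16 combinations of region, sex and label had 3 libraries, so that each region had 6 of each label. The labels name no treatment and give the animals only as kept on chow and in shared cages. The design text calls the replicates biological, but no label says which libraries came from the same animal.

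In the antioxidant system, superoxide dismutases turn superoxide into hydrogen peroxide, which glutathione peroxidases and peroxiredoxins then reduce. Glutathione S-transferases couple glutathione to electrophiles such as lipid aldehydes, and glutathione itself is built by glutamate-cysteine ligase and glutathione synthetase. The transcription factor NRF2 (Nfe2l2) is held low by KEAP1 until electrophiles modify KEAP1, and then drives many of these genes through the antioxidant response element. In the brain, glia are known to carry much of this activity and to supply neurons with glutathione precursors.

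Library totals ran from 14.6 to 25.9 M counts (M for mega). The targeted gene went against the labels: Cyp2e1 had 34 to 111 counts in each library labelled KO and 0 to 8 in each labelled WT, so directions below are between libraries as labelled, and KO and WT stand for the label alone. The dissections also differed. The summed level of 12 cerebellar granule cell markers spanned 377 to 7184 CPM (counts per M counts of a library, scaled by TMM) over the 12 cerebellum libraries, and reached 2280 in 1 library of the dorsal hippocampus. It was 2369 to 3908 in 3 ventral hippocampus libraries, against 597 or less in the other dorsal and 652 or less in the other ventral ones. The medial prefrontal cortex libraries spanned 271 to 1460 CPM in 10 markers of striatal projection neurons. By a limit of 1.2 log2 units from the median of the region, chosen after seeing the data, 10 libraries were taken to stand apart in these markers. The limit was set below the median in the cerebellum and above it in the other regions. Libraries beyond 1.2 on the opposite side were kept, as in KO cerebellum (up to 1.61) and KO medial prefrontal cortex (down to -1.38). Counts of called members are given with and without the 10 where leaving them out changed a call or moved a count. The same was done for the region comparisons. Excitatory neuron, astrocyte and oligodendrocyte markers were above 0 in every library. The extraction protocol speaks of liver. Of 7 liver markers, Fgb, Cyp3a11, Alb and Serpina1a were at 0 in 48, 47, 37 and 23 of the 48 libraries, and Apoa1, Ttr and Trf in 2, 1 and 0. The 7 summed to 102 to 1930 CPM over the libraries, with Ttr, a choroid plexus gene, and Trf, an oligodendrocyte gene, among them. Markers of choroid plexus and ependyma, Ttr among them, reached 1373 CPM in the cerebellum, 941 in the dorsal and 552 in the ventral hippocampus. Their medians by label in these regions were 14.4 to 77.0 CPM. They were not used to set libraries apart.

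The element through which NRF2 acts has the core TGACNNNGC, and the members whose promoters carry these letters are shown. Levels were not compared between members with and without a match. RefSeq promoter windows (build GRCm38.p6, from 250 bases before to 50 bases after an annotated start) were at hand for 34 of the 40 members, in 45 windows. On either strand, 10 members had a match in a window, or 29.4% of the 34, against 14.0% of the 27025 genes in the table, and 22.2% of member windows against 12.4% of all 32851 windows. Capitals mark the match, which reads TGACNNNGC where it lies on the gene's strand and as its reverse complement GCNNNGTCA otherwise; each window is written along the gene's own strand.
Gclm, chr3:122245413-122245441 (+): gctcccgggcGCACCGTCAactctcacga
Gstm5, chr3:107895802-107895830 (+): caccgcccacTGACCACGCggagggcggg
Gstm7, chr3:107931725-107931753 (-): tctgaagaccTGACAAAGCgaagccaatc
Me1, chr9:86695902-86695930 (-): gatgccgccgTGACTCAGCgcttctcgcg
Mgst1, chr6:138140461-138140489 (+): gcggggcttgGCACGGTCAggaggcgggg
Nfe2l2, chr2:75704885-75704913 (-): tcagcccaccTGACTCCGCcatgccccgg
Prdx1, chr4:116685456-116685484 (+): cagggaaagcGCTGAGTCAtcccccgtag
Sod1, chr16:90220696-90220724 (+): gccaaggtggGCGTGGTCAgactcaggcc
Srxn1, chr2:152105542-152105570 (+): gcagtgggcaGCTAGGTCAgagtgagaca
Txnrd1, chr10:82859104-82859132 (+): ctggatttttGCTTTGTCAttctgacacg
The match began 42 bases before the start in Gstm5, 129 before it in Gstm7 and at base 29 counted from the start in Srxn1. The 6 members beside these 34 are Gclc, Sod3, Gsr, Gsta4, Prdx6 and Hmox1.

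Gpx3 and Gstm5, the members with the smallest adjusted p for a KO against WT difference that varied between regions (below), are shown with their whole windows, since the match is present in the window of Gstm5 and not in that of Gpx3. A match, or its absence from these letters, is a description of the window alone.
Gstm5, chr3:107895604-107895903 (+): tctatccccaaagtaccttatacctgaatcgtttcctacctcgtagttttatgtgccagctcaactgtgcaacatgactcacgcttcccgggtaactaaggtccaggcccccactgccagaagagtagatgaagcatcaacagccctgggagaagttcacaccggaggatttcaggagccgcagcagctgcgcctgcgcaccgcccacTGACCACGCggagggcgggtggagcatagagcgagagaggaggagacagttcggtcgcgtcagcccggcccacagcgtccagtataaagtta
Gpx3, chr11:54902604-54902903 (+): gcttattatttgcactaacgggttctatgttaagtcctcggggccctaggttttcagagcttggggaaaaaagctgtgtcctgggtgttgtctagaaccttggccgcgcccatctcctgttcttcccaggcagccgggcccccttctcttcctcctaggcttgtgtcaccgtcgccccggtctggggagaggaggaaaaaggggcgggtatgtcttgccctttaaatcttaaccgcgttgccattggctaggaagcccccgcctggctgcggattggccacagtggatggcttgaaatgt

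Among the members, abundance ran over a wide range. On the scale of mean CPM per kilobase of the gene length in the table, Fth1, the iron-oxidising heavy chain of ferritin, was at 367. Gpx4, which reduces lipid hydroperoxides within membranes, followed at 112 and the mu-class transferase Gstm1 at 108. The Gpx4 value is uncertain, since 25.2% of its 100-base stretches were shared with other annotated genes, among them Gpx4-ps2. The peroxiredoxins Prdx5 and Prdx2 were at 87.2 and 61.9 and Gstm5 at 69.3. Of the regulators, Nfe2l2 was at 3.61 (rank 34 among the members) and Keap1 at 15.4 (rank 21). The classical NRF2 targets Nqo1, a quinone reductase, and Hmox1, the haem-degrading oxygenase, were at 2.87 and 2.41. Sod3, the secreted superoxide dismutase, was lowest at 1.32. In bulk RNA a lower level can come from fewer cells of a type or from less RNA per cell, and these cannot be told apart in any comparison here.

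**Figure D1:**
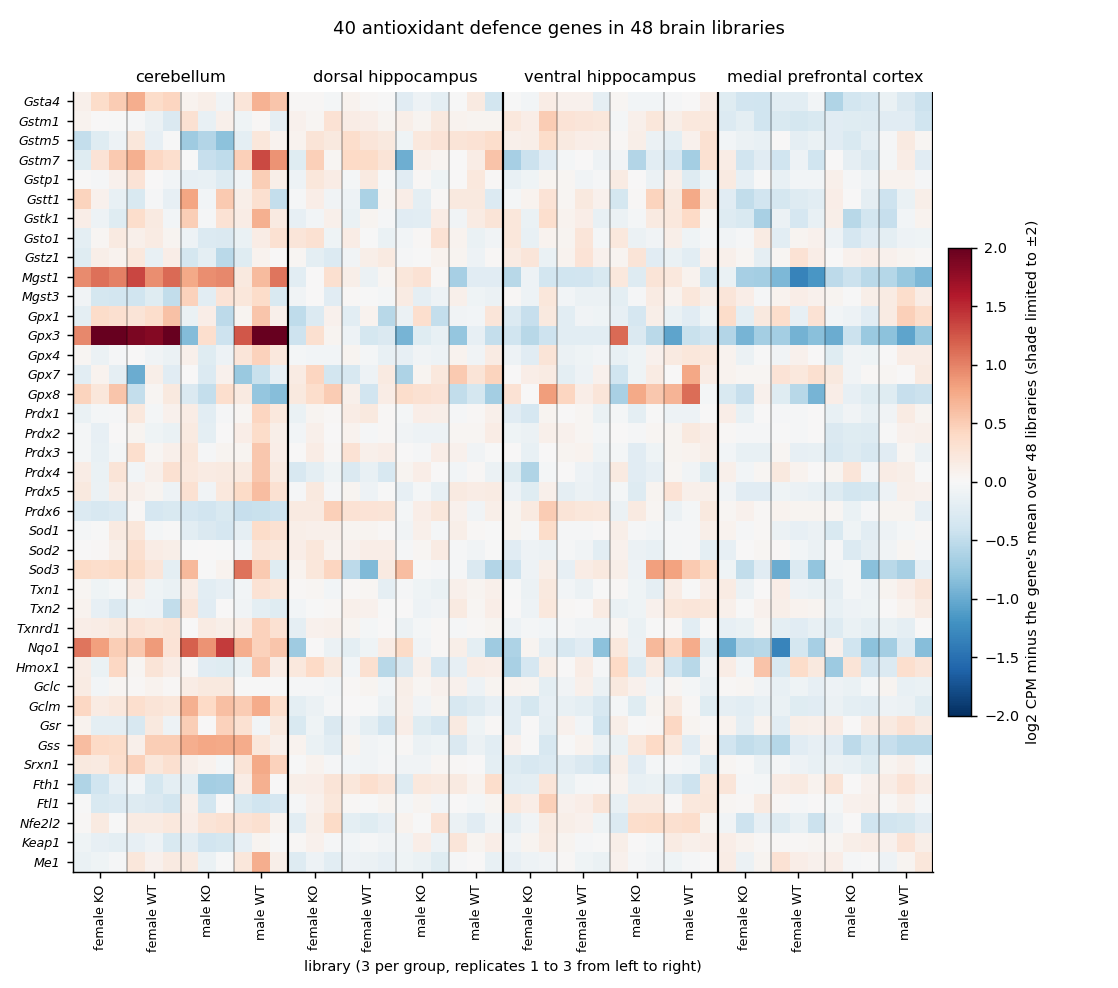
Each row is 1 of the 40 genes and each column 1 of the 48 libraries, ordered by region, sex and label. The shade gives log2 CPM minus the gene's own mean over the 48 libraries, in log2 units. Gpx3, Mgst1 and Nqo1 stand out in the cerebellum, and the Gpx3 row is paler in the 3 male KO cerebellum libraries, at 7.67 to 17.7 CPM.

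The regions differed most in Gpx3, Mgst1 and Nqo1. Gpx3 encodes the secreted glutathione peroxidase. Its level in the cerebellum had a lowest, median and highest value of 7.67, 50.8 and 90.2 CPM. The same values were 7.29, 11.7 and 17.5 for dorsal and 6.75, 10.6 and 30.7 for ventral hippocampus, and 6.69, 8.07 and 10.4 for medial prefrontal cortex. Most cerebellum libraries lay above every forebrain library, but the range in the cerebellum overlapped that of each forebrain region. The lowest Gpx3 values in the cerebellum were in the 3 male KO libraries, which had 4668 to 7184 CPM of granule cell markers. The highest was in male WT 2, a library low in these markers. The part of granule cells in the Gpx3 difference between regions was not tested. Mgst1, a membrane-bound glutathione transferase and peroxidase, was at 7.62, 12.9 and 16.9 CPM in the cerebellum and at 4.21, 6.74 and 8.35 in the dorsal hippocampus. Its lowest values were in the medial prefrontal cortex, at 2.65, 4.20 and 6.07 CPM, a range wholly under that of the cerebellum. Nqo1 was at 4.91, 6.96 and 10.7 CPM in the cerebellum and 1.63, 2.63 and 4.31 in the medial prefrontal cortex, again without overlap. The ratio of the highest to the lowest region mean was 5.59 for Gpx3, 3.08 for Mgst1 and 2.61 for Nqo1. No other member reached 2, and 17 of the 40 stayed under 1.2, with Txn1, the cytosolic thioredoxin, the flattest at 1.02.

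In the fit over all 48 libraries, 27 of the 40 members differed between the cerebellum and the mean of the 3 forebrain regions, 19 of them higher and 8 lower (edgeR quasi-likelihood test, Benjamini-Hochberg adjusted p under 0.05). Over all 19183 genes tested 66.3% did so (34.9% higher and 31.4% lower), which is close to the members' 67.5%. Gpx3 was higher by 1.88 on the log2 scale (SE 0.13, adjusted p = 8.52e-16 in edgeR), Mgst1 by 1.23 (SE 0.07) and Nqo1 by 1.01 (SE 0.10). The genes of glutathione synthesis were all higher: Gss, glutathione synthetase, was higher by 0.65 (SE 0.06), Gclm, the modifier subunit of glutamate-cysteine ligase, by 0.55 (SE 0.04), and Gclc, its catalytic subunit, by 0.08 (SE 0.03). Gsr, which regenerates reduced glutathione, did not pass. Srxn1, the sulfiredoxin that repairs overoxidised peroxiredoxins, was higher by 0.38 (SE 0.04) and Txnrd1, which recharges thioredoxin, by 0.27 (SE 0.03). Among the regulators, Nfe2l2 was higher by 0.23 (SE 0.06) and Keap1 lower, at -0.23 (SE 0.03).

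The 8 members that were lower in the cerebellum were Prdx6, Gpx7, Ftl1, Gstm5, Fth1, Keap1, Txn2 and Gstz1. Prdx6, a peroxiredoxin that uses glutathione and also acts on phospholipids, had a lowest, median and highest value of 128, 140 and 178 CPM in the cerebellum and 168, 199 and 244 in the dorsal hippocampus. The ranges overlapped through the highest cerebellum library, and the difference from the forebrain was -0.43 (SE 0.04). Both ferritin chains were lower, Ftl1 at -0.31 (SE 0.04) and Fth1 at -0.26 (SE 0.06). The Ftl1 value is uncertain, since 44.7% of its 100-base stretches were shared with other annotated genes, among them Ftl1-ps1. Without the libraries that stood apart in markers, 23 members differed between the cerebellum and the forebrain, 20 of them among the 27. The share of all genes in that fit is not given here. Of the 27, 13 passed in every setting tried other than leaving out single libraries, including each label alone: Ftl1, Gclm, Gpx3, Gss, Gsta4, Keap1, Mgst1, Nqo1, Prdx4, Prdx5, Prdx6, Srxn1 and Txnrd1.

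**Figure D2:**
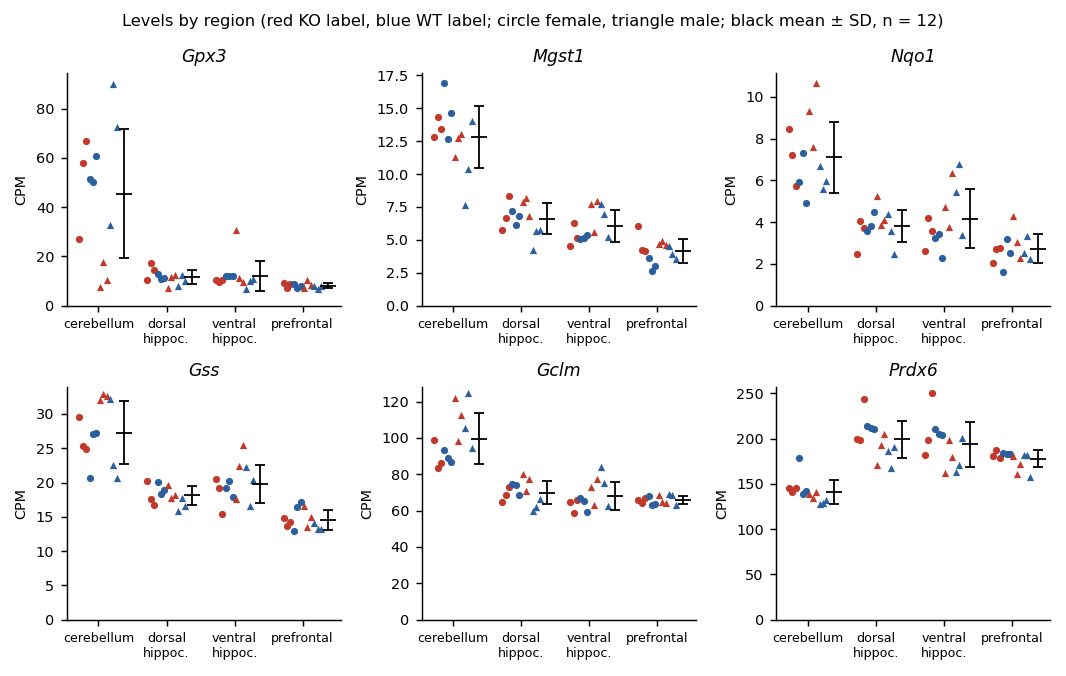
Levels in CPM of 6 members in each of the 48 libraries, by region, with mean ± SD over 12 libraries beside the points. Gpx3, Mgst1, Nqo1, Gss and Gclm are highest in the cerebellum, Prdx6 is lowest there, and Gpx3 spreads from 7.67 to 90.2 CPM within the cerebellum.

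The medial prefrontal cortex had the lowest mean of the 4 regions for 19 of the 40 members. Against the mean of both hippocampal regions, 21 members differed, 3 higher and 18 lower, where 33.8% of all genes tested differed (15.9% higher and 17.9% lower). The lower ones included transferases, with Mgst1 at -0.61 (SE 0.09) and Gstm1 at -0.44 (SE 0.04). Gstm1 was at 119, 131 and 137 CPM (lowest, median, highest) in the medial prefrontal cortex and at 163, 167 and 194 in the dorsal hippocampus, with no overlap. Of the 5 glutathione peroxidases, Gpx3 was lower, at -0.53 (SE 0.15), as was Gpx8, a peroxidase of the endoplasmic reticulum, at -0.53 (SE 0.13), while Gpx4, at 0.0014, and Gpx7, at 0.03, did not pass and Gpx1 was higher. Nqo1 was at -0.53 (SE 0.12), Gss at -0.37 (SE 0.06) and Nfe2l2 at -0.28 (SE 0.06). The 3 higher members were Gpx1, the cytosolic glutathione peroxidase, by 0.25 (SE 0.09), Prdx4, a peroxiredoxin of the endoplasmic reticulum, by 0.19 (SE 0.05), and Me1, a malic enzyme that makes NADPH, by 0.17 (SE 0.04), with 14.6% of its stretches shared with other annotated genes. Without the libraries that stood apart in markers 18 members differed, 16 of them among the 21. Within a label alone fewer passed, 10 in the WT and 6 in the KO libraries, and only Gss, Gstm1, Gstm5 and Mgst1 passed in every setting tried other than leaving out single libraries. The shares of all genes in these settings are not given here.

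Dorsal and ventral hippocampus differed in 6 of the 40 members, against 16.8% of all genes (9.7% higher and 7.15% lower). Gstm7 was higher in the dorsal part by 0.37 (SE 0.12), Fth1 by 0.26 (SE 0.08), Sod2, the mitochondrial superoxide dismutase, by 0.17 (SE 0.04, with 12.8% of its stretches shared), Srxn1 by 0.15 (SE 0.05) and Prdx1, a cytosolic peroxiredoxin, by 0.13 (SE 0.05). Ftl1 was lower, at -0.14 (SE 0.05). Of the 6, 2 passed without the libraries that stood apart, and none of the 6 passed in either label taken alone. The share of all genes that passed in these settings is not given here. The ventral libraries with high granule cell markers were also the high ones in Nqo1: male KO 3 was at 6.38 CPM, male WT 1 at 5.46 and male WT 2 at 6.78, and the other 9 ventral libraries lay between 2.29 and 4.71. The part of these cells in the levels was not tested.

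KO and WT libraries were next compared as labelled. In the cerebellum, with the sexes averaged, 4 of the 40 members were lower in KO libraries and none was higher, where 7.98% of 17825 genes passed (2.43% higher and 5.55% lower). At 10.0% the members' share was near that background. The 4 were the mu-class transferases Gstm5 and Gstm7, the secreted peroxidase Gpx3 and the ferritin heavy chain Fth1. The median log2 difference of the members was -0.12, against -0.000498 for all genes, and 17 members, or 42.5%, had an unadjusted p under 0.05, as did 36.0% of all genes.

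Gpx3 (chromosome 11, 54793279-54801203, mm39) had in the KO cerebellum a lowest, median and highest value of 7.67, 22.5 and 66.9 CPM, and in the WT cerebellum 32.9, 56.1 and 90.2. The groups overlapped, because female KO 2 and 3, at 58.1 and 66.9 CPM, lay within the WT range. The fitted log2 difference was -1.26 (SE 0.29, adjusted p = 0.0427, edgeR). Gstm5 (chromosome 3, 107803137-107806002) was at 49.4, 60.6 and 81.5 CPM in KO and 76.0, 89.0 and 102 in WT libraries, a difference of -0.51 (SE 0.10, adjusted p = 0.0427). Gstm7, its neighbour on chromosome 3 (107833650-107839133), was at 10.8, 14.2 and 22.2 CPM in KO and 19.4, 23.3 and 38.6 in WT libraries, a difference of -0.76 (SE 0.17, adjusted p = 0.0427). Both transferases overlapped between the labels only through female KO 3, at 81.5 and 22.2 CPM. Fth1 (chromosome 19, 9957962-9962462) was at 779, 885 and 1113 CPM in KO and 985, 1224 and 2048 in WT libraries, a difference of -0.50 (SE 0.14, adjusted p = 0.0490). Its highest value, 2048 CPM, was in male WT 2.

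Marker levels of several cell types are set beside these 4 genes. The summed granule cell markers had a lowest, median and highest value of 1117, 4758 and 7184 CPM in KO and 377, 689 and 4717 in WT cerebellum libraries, although none of the 12 markers passed the test between labels (median log2 difference 1.38). Those of Purkinje cells summed to 2998, 5958 and 8926 CPM in KO and 2152, 2491 and 5726 in WT libraries, and none of the 8 passed (median log2 difference 1.44). Markers of oligodendrocytes fell in KO libraries in 7 of 10, of their precursors in 3 of 5, of microglia in 4 of 9 and of astrocytes in 2 of 12. The summed oligodendrocyte markers were at 4265 to 8038 CPM in KO and 7034 to 16890 in WT libraries. Those of choroid plexus and ependyma were at 29.3 to 55.2 CPM in KO libraries, and none of the 7 tested was called. In the male WT libraries their lowest, median and highest sums were 29.5, 36.7 and 1373 CPM. The part of these cells in the 4 genes was not tested. Leaving out female WT 1, male WT 2 and male WT 3, the cerebellum libraries lowest in granule cell markers, left no member called, and 0.0685% of all genes, with male WT 1 alone in its group and assumed to vary as the others. The log2 differences were then -0.80 for Gpx3 (adjusted p = 0.513, edgeR), -0.34 for Gstm5 (0.464), -0.48 for Gstm7 (0.500) and -0.39 for Fth1 (0.483). With the mean of the granule cell markers as a covariate none was called either, and Gpx3 was at -0.62 (adjusted p = 0.522). Leaving out 1 library moved the count of called members from 0 to 17. It was 17 without male WT 1, and 0 without any of female KO 1, female KO 2, male KO 1, male KO 3 or any WT library other than male WT 1. The shares of all genes without 1 library are not given beside these counts. DESeq2 called 8 members and a single model of all 48 libraries 17, against 21.8% and 32.5% of all genes.

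**Figure D3:**
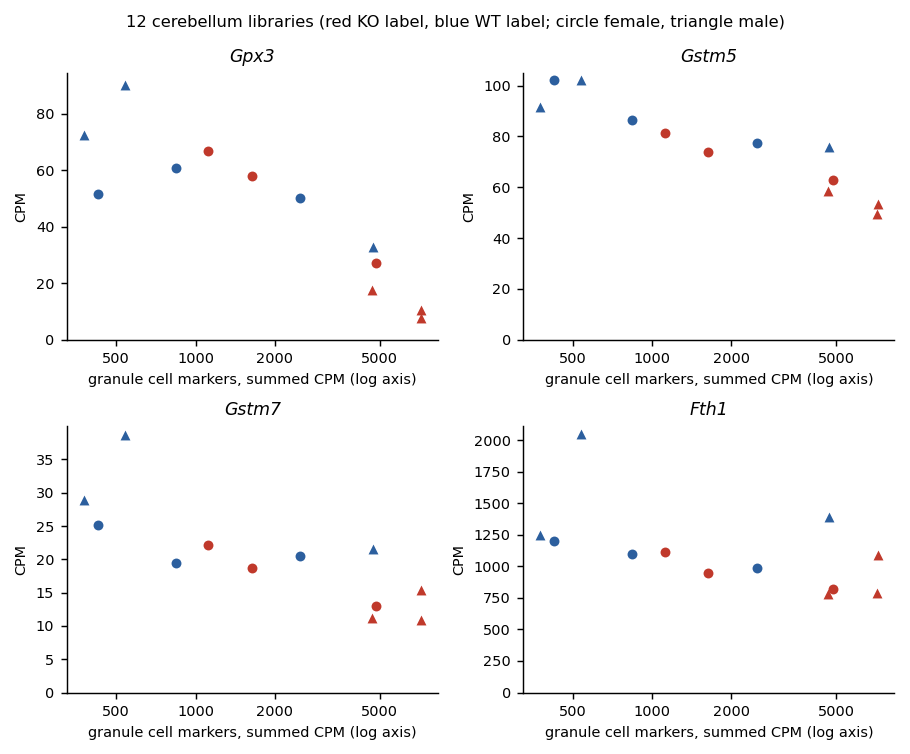
Levels in CPM of Gpx3, Gstm5, Gstm7 and Fth1 in the 12 cerebellum libraries, against the summed CPM of 12 granule cell markers on a log axis. The libraries with the most granule cell markers, at 7165 and 7184 CPM, are male KO 3 and male KO 1, and they have the lowest Gpx3 values, 10.5 and 7.67 CPM.

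**Figure D4:**
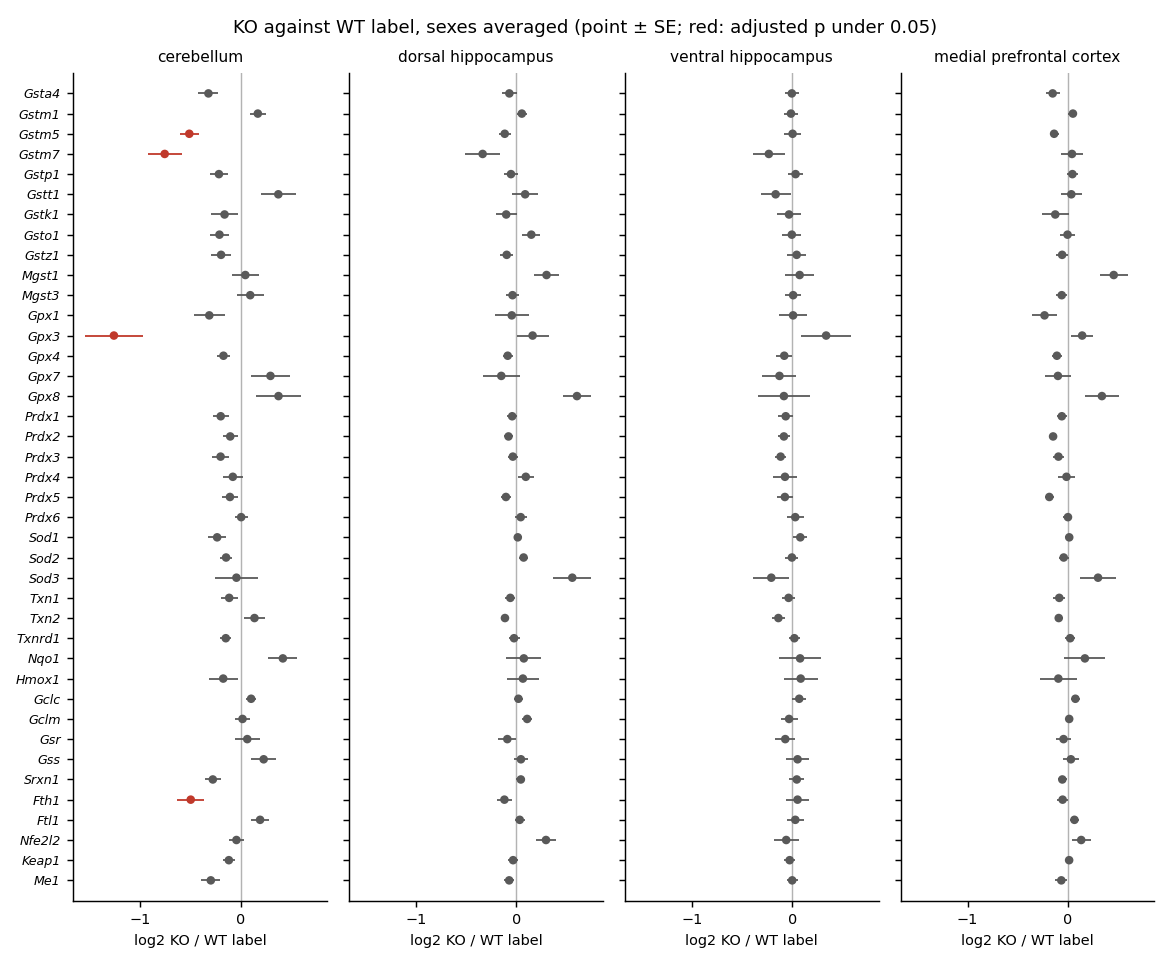
Log2 difference between KO and WT libraries for each of the 40 members, with the sexes averaged, as point ± SE in each region. The 4 red points, Gstm5, Gstm7, Gpx3 and Fth1, are all in the cerebellum and to the left of 0, and Gpx8 lies to the right of 0 in the dorsal hippocampus at 0.60.

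Fitted within each sex, the cerebellum gave calls in males only, although the sexes were not shown to differ. Within males 9 members were lower in KO libraries and none was higher, against 20.2% of all genes (7.91% higher and 12.3% lower), and the members' share was 22.5%. Within females no member passed, against 0.0337% of all genes, none had an unadjusted p under 0.05 (3.24% of all genes did), and DESeq2 called 0. Gpx3 was at 7.67, 17.7 and 10.5 CPM in the 3 male KO libraries and 32.9, 90.2 and 72.6 in the male WT libraries, with no overlap and a log2 difference of -2.43 (SE 0.43, adjusted p = 0.0177, edgeR). In females it was at 27.3, 58.1 and 66.9 CPM in KO and 51.5, 50.1 and 60.7 in WT libraries, which overlapped. The other 8 in males were Gstm7 at -1.24 (SE 0.24), Fth1 at -0.81 (SE 0.19), Gstm5 at -0.74 (SE 0.14), Gsta4 at -0.46 (SE 0.14), Sod1 at -0.45 (SE 0.13), Srxn1 at -0.45 (SE 0.11), Gpx4 at -0.37 (SE 0.10) and Keap1 at -0.27 (SE 0.08). Gsta4 detoxifies the aldehydes of lipid peroxidation and Sod1 is the cytosolic superoxide dismutase. The edgeR test of the difference between the sexes called no member (0% of all genes called), with an adjusted p of 0.305 for Gpx3. At an unadjusted p under 0.05 there were 7 members (17.5%, against 13.5% of all genes). DESeq2 gave 1 call and a model of all 48 libraries gave 3. The shares of all genes in these 2 fits are not given here. The male KO libraries had 4668 to 7184 CPM of granule cell markers and the male WT libraries 377 to 4717, and no member was called in males with the markers as a covariate or without the libraries that stood apart, where Gpx3 was at -1.47 (adjusted p = 0.462, edgeR). Without male KO 3 or male WT 2 the count in males was also 0, without male KO 1 or male WT 3 it was 5, and without male WT 1 it was 18. The all-library model called 20. The shares of all genes are not set beside these last counts, which describe dependence on the libraries and the model alone.

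In the medial prefrontal cortex no member passed with the sexes averaged, against 0.24% of all genes (edgeR), and 7 had an unadjusted p under 0.05 (17.5%, against 13.1% of all genes). DESeq2 called 2. In males 3 members, or 7.50%, were lower in KO libraries and none was higher, against 6.53% of all genes (4.52% higher and 2% lower). Prdx2 (chromosome 8, 85696216-85701463), the abundant cytosolic peroxiredoxin of neurons, was at 153, 158 and 158 CPM in the male KO libraries and 187, 200 and 201 in the male WT libraries. The log2 difference was -0.29 (SE 0.05, adjusted p = 0.00345, edgeR) and the groups did not overlap. Prdx5, a peroxiredoxin of mitochondria and peroxisomes, was at 155, 144 and 145 CPM in male KO and 172, 199 and 195 in male WT libraries, a difference of -0.32 (SE 0.06, adjusted p = 0.0113). Gstm5 was at 74.6, 70.2 and 77.3 CPM against 86.1, 98.4 and 89.5, a difference of -0.27 (SE 0.06, adjusted p = 0.0243). None of these groups overlapped. Of the Prdx5 transcript, 12.3% of 100-base stretches are shared with the overlapping gene Trmt112, so its value is uncertain to that extent. The same holds to a lesser extent for Prdx2, with 6.1% shared with Junb, Tdpx-ps1 and Rnaseh2a. For Gstm5, 5.6% are shared with 4933431E20Rik.

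In females of this region no member passed, against 0.234% of all genes (edgeR; 0 by DESeq2). At an unadjusted p under 0.05 there were 2 members, or 5.00%, and 6.11% of all genes. Prdx2 was at 191, 184 and 184 CPM in the female KO and 187, 184 and 189 in the female WT libraries. The difference between the sexes was itself called for Prdx2, at 0.29 on the log2 scale for the female minus the male difference (SE 0.07, adjusted p = 0.0384), which made 1 of 40 members where 1.61% of all genes passed (0.797% higher and 0.809% lower). That call was lost in 8 of the 12 fits without 1 library and in the model of all 48 libraries (adjusted p = 0.310). It was also lost without both female KO 2 and 3, the libraries that stood apart in this region, at 0.34 (adjusted p = 0.255), with female KO 1 alone in its group and assumed to vary as the others. The 8 were the fits without female KO 2 or 3, female WT 2 or 3, male KO 2 or 3, or male WT 2 or 3. For Prdx5 and Gstm5 the difference between the sexes was 0.26 (adjusted p = 0.135) and 0.27 (adjusted p = 0.144). The striatal markers summed to 271, 314 and 420 CPM in the male KO and 779, 672 and 930 in the male WT libraries, and to 633, 1460 and 1377 in the female KO and 556, 317 and 386 in the female WT libraries. With their mean as a covariate, Prdx2 in males was at -0.32 (adjusted p = 0.120, edgeR), Prdx5 at -0.45 (0.0758) and Gstm5 at -0.29 (0.242), so that the differences were as large and none was called. Leaving out each library in turn kept the Prdx2 difference in males called (adjusted p 0.00237 to 0.0253), while Prdx5 was lost without male WT 2 (0.0696) and Gstm5 without male KO 2 (0.0940), male KO 3 (0.0540), male WT 2 (0.129) or male WT 3 (0.0567).

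**Figure D5:**
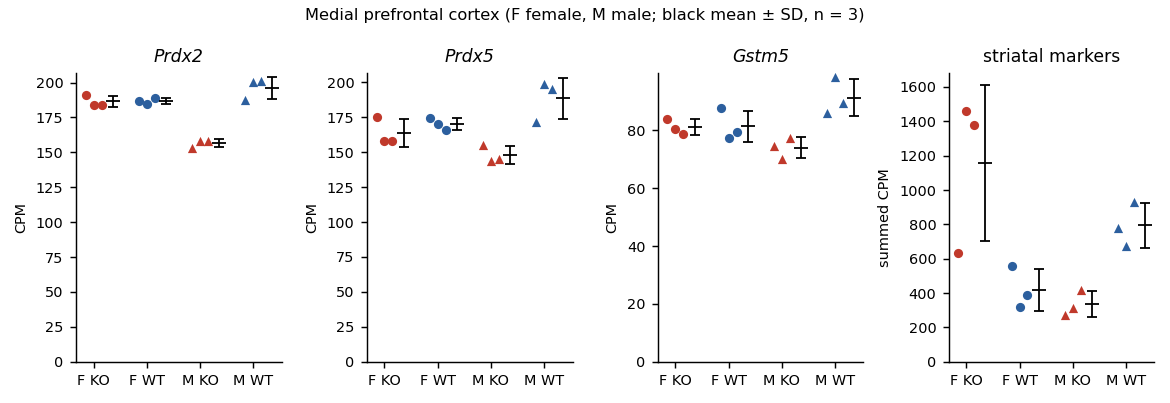
Levels in CPM of Prdx2, Prdx5 and Gstm5, and the summed CPM of 10 striatal markers, in the 12 medial prefrontal cortex libraries by sex and label, with mean ± SD over 3 libraries. The male KO libraries lie under all others in Prdx2, at 153 to 158 CPM, and they are low in striatal markers, at 271 to 420 CPM.

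In the dorsal hippocampus no member was called with the sexes averaged, against 0.655% of all genes (edgeR), 5 had an unadjusted p under 0.05 (12.5%, against 14.2% of all genes) and DESeq2 called 1. Gpx8 came nearest. It was at 3.68, 4.02 and 4.55 CPM (lowest, median, highest) in KO and 2.00, 2.47 and 3.55 in WT libraries, and was the only member in any region whose 6 KO and 6 WT libraries did not overlap, as 1.3% of all genes tested there did not (1.87% in the cerebellum, 0.668% in the medial prefrontal cortex and 0.259% in the ventral hippocampus). The difference was 0.60 on the log2 scale (SE 0.14, adjusted p = 0.0747, edgeR), 0.59 without male KO 1, the library high in granule cell markers (adjusted p = 0.0933), and 0.60 with no filter on low counts (adjusted p = 0.0441). Other markers had median log2 differences of 0.46 (meningeal fibroblast), 0.10 (astrocyte) and -0.23 (excitatory neuron) there. Of the 12 astrocyte markers, 2 were called higher in KO libraries. The part of these cells in the Gpx8 difference was not tested. Nfe2l2 was at 11.7 to 17.7 CPM in KO and 11.4 to 12.8 in WT libraries, a difference of 0.29 (SE 0.10, adjusted p = 0.198). No member was called by edgeR in males (1.87% of all genes) or in females (0.0575%). DESeq2 called 3 in males and 0 in females. The shares of all genes called by DESeq2 are not given in this paragraph. At an unadjusted p under 0.05 there were 8 members in males (20.0%, against 20.2% of all genes) and 3 in females (7.50%, against 6.71%). In the ventral hippocampus no member was called with the sexes averaged (0.0748% of all genes), none had an unadjusted p under 0.05 (4.34% of all genes did), and DESeq2 called 0. Nor was any called in its females (0.046%) or males (0.0403%), where 0 and 2 members had an unadjusted p under 0.05 (2.71% and 5.87% of all genes) and DESeq2 called 0. The test of the difference between the sexes called no member in the dorsal or the ventral hippocampus (0% of all genes in each), with 3 and 2 members at an unadjusted p under 0.05 (12.9% and 4.34% of all genes) and 1 and 0 called by DESeq2. Females and males differed in no member in any region by edgeR or DESeq2 within the region, with 3 to 9 members at an unadjusted p under 0.05 (7.79% to 18.5% of all genes) and 0.0393% of all genes called in the cerebellum, 0.0575% in the dorsal hippocampus, 0.105% in the medial prefrontal cortex and 0.0345% in the ventral hippocampus.

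A test over all 48 libraries asked if the KO to WT difference was unequal among the regions. It was for 3 of 40 members, Gpx3 (adjusted p = 0.00656, edgeR), Gstm5 (0.0164) and Srxn1 (0.0427), where 7.79% of all genes passed and the members' share was 7.50%. None passed without the cerebellum, and none without the libraries that stood apart in markers; leaving out 1 library gave 1 to 6. It was 1 without any of female KO 1, female WT 1, male KO 3 or male WT 2 of the cerebellum, and 6 without male WT 1. Of the 40 members, 9 had a difference below 0 in all 4 regions and 6 above 0, called or not. The share of all genes with the same sign throughout was not counted, so these counts are not read as a label difference of the members.

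A further 92 genes of the same pathways, among them other transferases, glutaredoxins, thioredoxin-linked and NADPH-making enzymes and partners of NRF2, were counted in the same fits. Whether their calls held with the marker covariate, or with libraries left out, was not tested. The members' calls in the cerebellum did depend on both. In the cerebellum 11 of the 84 tested were lower in KO libraries and none was higher, or 13.1% against 7.98% of all genes (2.43% higher and 5.55% lower). They included Glrx, a glutaredoxin, at -0.51 (SE 0.11), Tkt, the transketolase of the pentose phosphate pathway, at -0.51 (SE 0.11), Akr1b10, an aldo-keto reductase, at -0.51 (SE 0.11), and Gstt3, a theta-class transferase, at -0.60 (SE 0.14). Glo1, the glyoxalase that uses glutathione to remove methylglyoxal, was lower in KO libraries in all 4 regions, at -1.30 (SE 0.08) in the cerebellum, -1.17 (SE 0.06) in the medial prefrontal cortex, -1.20 (SE 0.08) in ventral and -1.22 (SE 0.07) in dorsal hippocampus. It was the only gene of the 92 called in each region. Glo1 overlaps Dnah8, on the opposite strand, at its edge, and no label says if the counting used strand. The labels also differ in strain name, and the part of strain in the Glo1 difference was not tested. Selenow, a small selenoprotein, was lower in the dorsal hippocampus, at -0.24 (SE 0.05). In males of the medial prefrontal cortex 4 of 83 were higher and 3 lower, or 8.43% against 6.53% of all genes. Slc7a11, the cystine importer that feeds glutathione synthesis, was higher by 0.51 (SE 0.10), Mafg, a DNA-binding partner of NRF2, by 0.40 (SE 0.09), Txnip, a thioredoxin inhibitor, by 0.45 (SE 0.11), and Aox1, an aldehyde oxidase, by 0.82 (SE 0.18). The lower ones were Glo1, at -1.31 (SE 0.08), Selenow, at -0.23 (SE 0.06), and Gpx6, a glutathione peroxidase, at -3.66 (SE 0.89). The female minus male difference was called for 2 of 83, where 1.61% of all genes passed (edgeR). These were Gpx6, at 5.68 (SE 1.11, adjusted p = 0.0217), and Slc7a11, at -0.73 (SE 0.15, adjusted p = 0.0251). Gpx6 was thus higher in KO libraries in females, though not called there. The summed striatal markers were also lower in KO libraries in males and higher in females (above). The part of these markers in the Gpx6 difference was not tested.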

How the data were processed

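Polyadenylated RNA was sequenced in 48 libraries, 3 for each of 16 combinations of brain region, sex and genotype label. The values the authors deposited are unnormalized counts, with 1 row a gene. The submitters' processing notes name HISAT2 2.0.5, DESeq2 and the build mm39; the counting tool, its strand setting and its annotation are not given in the sources used here. Columns were matched to samples by the name in each sample's description. Coordinates of genes are those of the table.

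After filterByExpr (minimum count 10, minimum total 15) and TMM scaling, counts were tested by the quasi-likelihood F test of edgeR 4.0.16 in R 4.3.3. Benjamini-Hochberg adjustment ran over every gene tested, and a gene counted as called below an adjusted p of 0.05. The regions had separate fits with 4 means for sex and label. Contrasts between regions, and the test of whether the label difference varies between them, used all 48 libraries as independent. CPM values use TMM factors over all 48 libraries, and errors are SDs or fitted SEs. No pair of replicates was a copy. Replicate numbers did not meet the criterion for pairing, which asks it of every pair: 5 of 24 KO and WT pairs and 27 of 72 pairs across regions with the same number correlated above 0.1. A criterion asked of every pair can fail even where animals were shared, so it does not settle the pairing. If libraries of different regions shared an animal is not known, and p-values of region contrasts would then rest on fewer animals than libraries. The p-values measure the spread between these libraries only.

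Alternatives were DESeq2 1.42.0, RLE factors, filters, a replicate block, 1 model for all libraries, marker means as a covariate and leaving out libraries; 10 libraries that stood apart in markers were left out as an alternative chosen after seeing the data. Members, marker lists and the list of 92 further genes were chosen with earlier results of these data known. Individual tests were described for members called in a contrast or nearest to it by p, and at most 6 further genes a region by the smallest p. The procedures were tested on simulated data. Shared 100-base stretches were counted in GENCODE M21 transcripts, and promoter windows are RefSeq's.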

Additional observations from a re-analysis of the deposited data

Results flagged for a closer look

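Among 96 groups of 6 libraries (12 members, 4 regions, both labels), 4 held a library far from the others, where chance flags about 1 in 20 groups. Gpx3 in ventral male KO 1 was at 30.7 CPM, with the other KO libraries at 9.53 to 11.4. Gpx3 in ventral male WT 1, a library high in granule cell markers, was at 6.75 CPM, with the others at 10.2 to 12.1. Fth1 in dorsal male KO 1, also high in those markers, was at 1043 CPM, with the others at 1350 to 1501. Me1 in cerebellum male WT 2, low in those markers, was at 109 CPM, with the others at 69.5 to 76.9.

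The label difference was unequal among the regions for Gpx3 (adjusted p = 0.00656, edgeR quasi-likelihood test), Gstm5 (0.0164) and Srxn1 (0.0427). It differed between the sexes in the medial prefrontal cortex for Prdx2 (adjusted p = 0.0384). The part of the marker differences in these results was not tested beyond the values given with them.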

How the results depend on the processing

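No result changed direction. Of 359 values of single members under other settings 280 stayed on their side of the threshold, and of 1260 values without 1 library 1134 did. Counts of called members moved as follows, against the edgeR fit. They are listed here without the shares of all genes, and describe dependence on the setting alone. DESeq2 called 8 in the cerebellum with the sexes averaged, 1 in the dorsal hippocampus, 2 in the medial prefrontal cortex, 3 in dorsal males and 1 each for sex by label in the cerebellum and the dorsal hippocampus. The model of all 48 libraries called 17 in the cerebellum, 20 in its males, 3 for its sex by label, 6 for its sexes, 3 for the sexes in the ventral hippocampus, 1 in prefrontal males and 0 for sex by label there. The marker covariate gave 0 in the cerebellum, 0 in its males and 0 in prefrontal males. With no filter on low counts there were 3 calls in the dorsal hippocampus, 4 in its males, 1 for its sexes, 2 in the medial prefrontal cortex, 2 for sex by label there and 3 for dorsal against ventral. The stricter filter gave 1 in dorsal males. Dorsal against ventral gave 0 in KO and 2 in WT libraries, and prefrontal cortex against hippocampus gave 6 and 10. Without the doubted libraries the counts were 0 in the cerebellum, 0 in its males, 0 for sex by label in the medial prefrontal cortex, 0 for the difference between regions and 2 for dorsal against ventral. Without the cerebellum the difference between regions gave 0.

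The replicate block, in which a shared number is a term, gave 2 calls in the cerebellum (Gpx3 and Gstm5, without Gstm7 and Fth1) and 0 for sex by label in the medial prefrontal cortex. The criterion for pairing was not met but does not settle if animals were shared. Calls lost under the block are therefore given without a reading.

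Leaving out 1 library gave 0 to 17 calls in the cerebellum, 0 to 18 in its males, 0 to 2 in the medial prefrontal cortex, 1 to 3 in its males, 0 to 1 for its sex by label, 0 to 3 in dorsal males, 0 to 1 for the sexes in the ventral hippocampus, 1 to 6 for the difference between regions and 2 to 8 for dorsal against ventral. At these depths the smallest count of a member in a library was 24.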
